A study of Mus musculus with 10 samples.

Results

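The genes described here are interferon-stimulated genes outside the OAS family, a set of 39 listed mouse genes that cells switch on when interferons bind their receptors. Members were taken as probe sets whose only gene symbol was on the list, keeping the probe set of highest mean where a gene had several. This gave 36 measured members among 22180 genes in all. Gbp2 and Dtx3l occurred only on probe sets that also name another gene, and Ifi44 was not analysed here.

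The series compared jejunum of mice whose gut epithelium had lost Pcyt1a with jejunum of mice that kept it, by 1 whole-transcript Affymetrix array per sample. Pcyt1a encodes the rate-limiting enzyme of phosphatidylcholine synthesis by the CDP-choline route. The 5 knockout samples, numbered 1 to 5, had the genotype Pcyt1aLoxP/LoxP;VilCreERT2, in which the villin promoter drives a Cre recombinase that tamoxifen activates. The 5 control samples, numbered 6 to 10, had the genotype Pcyt1aLoxP/LoxP. All mice were female and 10 to 12 weeks old, and both groups had 5 days of tamoxifen, 4 days on high fat food and an overnight fast. Only knockouts carried the Cre, so its presence and the loss of Pcyt1a cannot be told apart. Each sample was a 3 cm piece of jejunum. The villin promoter is active in epithelium, so immune, vessel and muscle cells of the piece keep the gene. The design text mentions re-feeding, which no sample label does, and the source label of the controls also speaks of tissue without phosphatidylcholine synthesis.

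Pcyt1a itself checks the labels. Its log2 intensity averaged 7.46 ± 0.25 over the 5 knockout arrays and 9.39 ± 0.17 over the 5 control arrays (SD), which put knockouts lower by a log2 fold change of -1.93 (SE 0.13; adjusted p = 9.577e-05 by limma). The median log2 intensity over all genes lay between 5.77 and 5.89 on every array. All 10 markers of jejunal enterocytes were measured, with a mean log2 intensity of 12.8 to 13.1 on knockout arrays and 13.0 to 13.2 on control arrays. The labels do not state that each sample is a different mouse, and the p-values reflect only how far these samples spread. In pieces of whole tissue, fewer cells of a type and less RNA per cell cannot be told apart.

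Interferons fall into types by their receptor. Type I interferons (alpha and beta) and the related type III (lambda), to which gut epithelium responds strongly, activate the complex ISGF3, which contains Stat2 and Irf9 and binds the interferon-stimulated response element (ISRE). Type II interferon (gamma), made by T and natural killer cells, acts through the gamma-activated sequence (GAS) and through Irf1, which binds sites like the ISRE. Members were sorted into genes that answer mainly to type I (17 measured), mainly to type II (13 measured) or well to both (6 measured). The sorting follows textbook knowledge of the promoter elements and is not sharp, since most members answer to each type to some degree.

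Promoters of 4 members show these elements, for the type I and type II pairs of smallest p among members with an entry in the promoter table and a value for every array below. The windows, from RefSeq on GRCm38.p6, run from 250 bases before to 50 bases after the gene's start. Capitals mark matches on either strand to the ISRE core GAAANNGAA or to the GAS TTCNNNGAA; these motifs can overlap each other. The windows lie at chr12:26456403-26456702 on the minus strand for Rsad2, chr7:141266375-141266674 on the minus strand for Irf7, chr11:48871371-48871670 on the minus strand for Irgm1 and chr11:58199306-58199605 on the plus strand for Igtp.
Rsad2: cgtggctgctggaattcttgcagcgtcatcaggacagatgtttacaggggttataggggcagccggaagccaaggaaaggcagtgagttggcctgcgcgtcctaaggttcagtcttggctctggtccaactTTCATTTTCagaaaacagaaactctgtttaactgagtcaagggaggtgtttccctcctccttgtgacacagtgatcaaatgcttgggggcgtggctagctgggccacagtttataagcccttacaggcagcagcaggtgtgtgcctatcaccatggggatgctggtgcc
Irf7: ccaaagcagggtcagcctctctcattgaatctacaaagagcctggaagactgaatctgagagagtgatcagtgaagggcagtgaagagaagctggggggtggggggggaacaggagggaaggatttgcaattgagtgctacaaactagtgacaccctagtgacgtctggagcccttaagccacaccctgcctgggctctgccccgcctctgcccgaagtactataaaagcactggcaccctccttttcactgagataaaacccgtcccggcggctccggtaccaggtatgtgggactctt
Irgm1: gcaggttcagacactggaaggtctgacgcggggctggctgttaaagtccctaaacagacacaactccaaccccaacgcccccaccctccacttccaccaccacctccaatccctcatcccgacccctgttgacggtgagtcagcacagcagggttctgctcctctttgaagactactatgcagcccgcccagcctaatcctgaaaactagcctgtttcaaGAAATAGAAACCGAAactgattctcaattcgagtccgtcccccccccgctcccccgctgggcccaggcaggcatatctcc
Igtp: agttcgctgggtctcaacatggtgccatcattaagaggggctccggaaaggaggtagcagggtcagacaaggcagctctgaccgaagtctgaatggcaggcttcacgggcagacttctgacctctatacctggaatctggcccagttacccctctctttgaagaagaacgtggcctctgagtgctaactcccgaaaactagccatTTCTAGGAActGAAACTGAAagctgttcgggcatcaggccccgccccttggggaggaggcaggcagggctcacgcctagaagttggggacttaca

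The ISRE core in Rsad2 begins 119 bases before the start. Irgm1 has 2 overlapping ISRE cores, at 30 and 24 bases before it. Igtp has a GAS at 45 and an ISRE core at 34 bases before the start, whereas the Irf7 window holds neither word. The promoter table held 25 of the measured members. At least 1 window held the ISRE core for 16 of them (64.0%) and the GAS for 9 of 25, against 9.76% and 9.55% of all 27025 genes in the table. By class, the ISRE core was present for 8 of 12 type I and 6 of 10 type II genes, and the GAS for 4 of 12 and 5 of 10. The sorting drew on knowledge of these elements, so the counts by class are not independent of it. A match is a description of the letters and not of a bound site.

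Most members read higher in knockout jejunum, each by at most 1.57-fold, and none passed the test across all genes. Of 36 members, 30 (83.3%) had a positive log2 fold change, against 46.5% of all genes tested. The median over members was 0.27, against -0.01 over all genes. At an adjusted p under 0.05, 0 members were called in either direction, where 0.00451% of all genes were called higher and 0.0225% lower. The smallest adjusted p was 0.120, for Dhx58. At an unadjusted p under 0.05 there were 12 members, all higher in knockouts, or 33.3%, against 8.29% of all genes higher and 5.56% lower at that p. Knockout and control values did not overlap for 2 members, both higher, or 5.56%, against 1.64% of all genes higher and 0.965% lower.

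**Figure D1:**
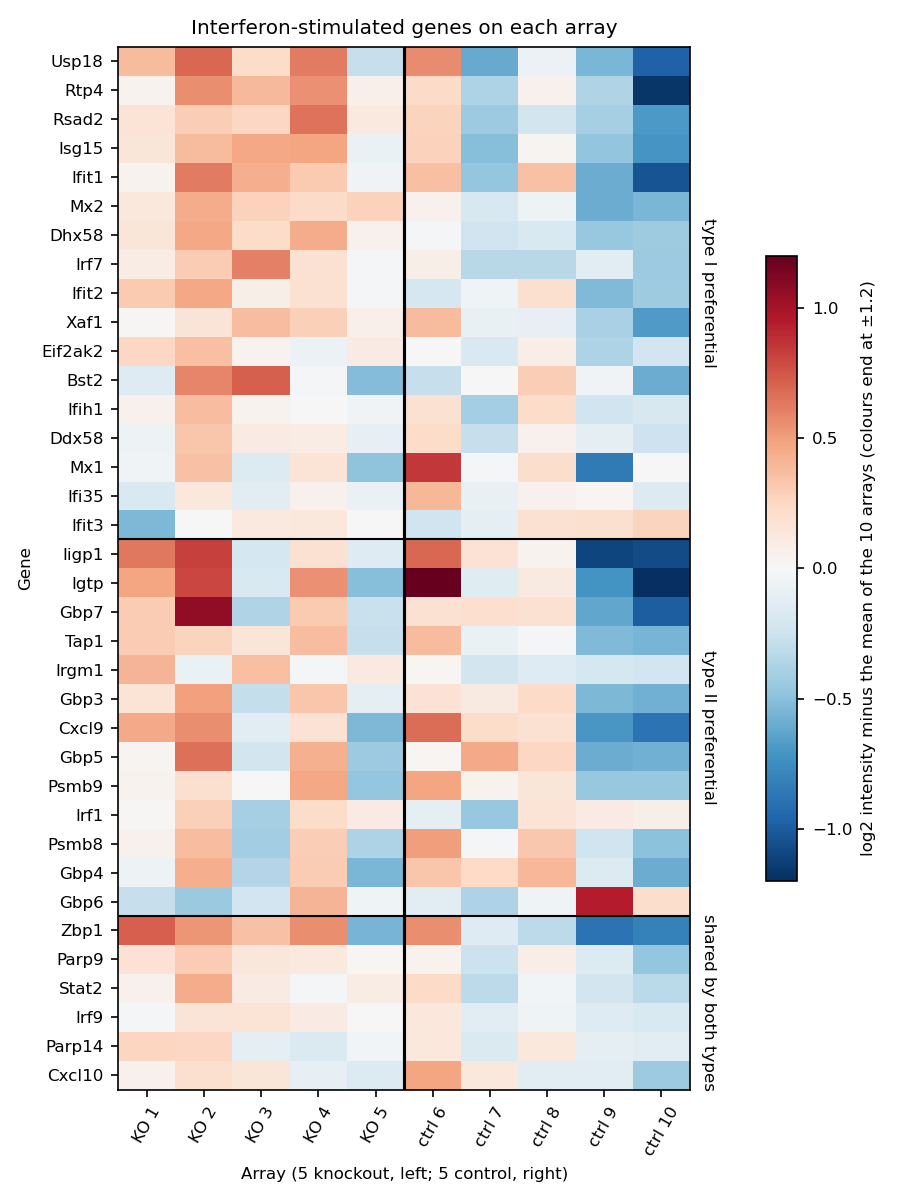
Log2 intensity of the 36 members (rows, by class) on the 5 knockout and 5 control arrays (columns), each gene centred on its mean over the 10 arrays. Knockout 2 and control 6 are high for most genes and control 10 is low, while Ifit3 and Gbp6 run against that order.

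**Figure D2:**
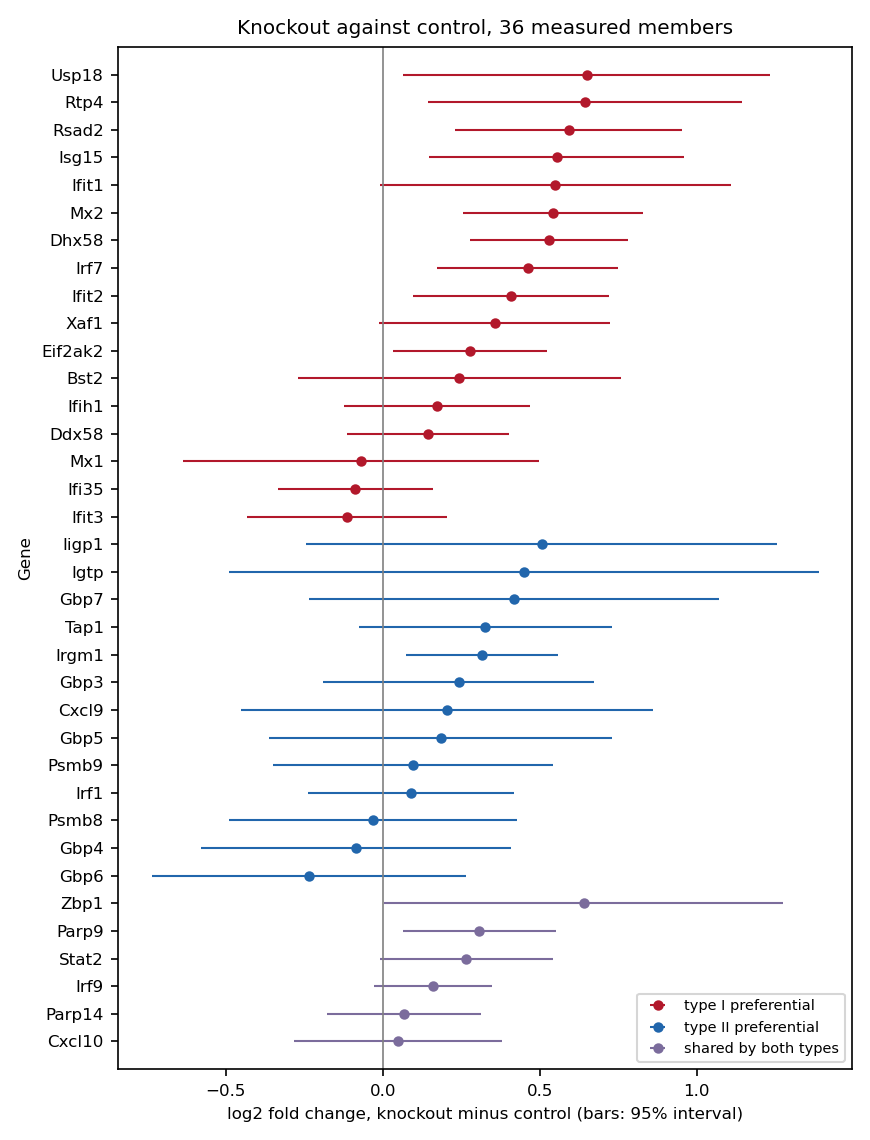
Log2 fold change of each member, knockout minus control, with its 95% interval from limma and n = 5 arrays per group. The intervals of 12 members exclude 0, of which 9 are type I genes, 1 is a type II gene (Irgm1) and 2 are shared by both types (Zbp1 and Parp9).

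The transcription factors of the response come first. Irf7, the factor that amplifies type I interferon production, read 9.22, 9.43, 9.73, 9.31 and 9.11 on knockouts 1 to 5, against 9.20, 8.80, 8.80, 9.00 and 8.69 on controls 6 to 10. Control 6 stood within the knockout range, and the other controls lay below every knockout. The log2 fold change was 0.46 (SE 0.13, limma adjusted p = 0.180). The ISGF3 subunits Stat2 and Irf9 were at 0.27 (95% interval -0.01 to 0.54) and 0.16 (-0.03 to 0.35), with overlapping groups. Irf1, the factor through which interferon gamma induces later genes, averaged 8.33 ± 0.27 in knockouts and 8.24 ± 0.25 in controls, a difference of 0.09 (SE 0.15).

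Among sensors of viral nucleic acid, Dhx58 (LGP2, a regulator of the RIG-I-like receptors) had the smallest p of all members. It read 7.04, 7.36, 7.12, 7.34 and 6.95 on knockouts 1 to 5, against 6.88, 6.66, 6.71, 6.44 and 6.47 on controls 6 to 10. The lowest knockout lay just above the highest control. The log2 fold change was 0.53 (SE 0.12, adjusted p = 0.120), a fold of 1.44. Zbp1, a sensor of Z-form nucleic acid that can trigger cell death, read 8.65, 8.46, 8.28, 8.49 and 7.37 on knockouts, against 8.49, 7.78, 7.62, 7.04 and 7.12 on controls. Knockout 5 sat low among the knockouts and control 6 high among the controls, so the ranges overlapped widely. Its log2 fold change was 0.64 (SE 0.29, adjusted p = 0.357). The RNA receptors Ifih1 (MDA5) and Ddx58 (RIG-I) were at 0.17 (SE 0.14) and 0.14 (SE 0.12), with 95% intervals that included 0.

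The antiviral effectors gave 5 of 11 members at an unadjusted p under 0.05, all higher, against 8.29% of all genes higher. Mx2, a gene of the dynamin-like GTPase family, read 5.61, 5.93, 5.76, 5.71 and 5.76 on knockouts 1 to 5, against 5.53, 5.29, 5.42, 4.89 and 4.93 on controls 6 to 10. All knockouts lay above all controls, by a narrow margin over control 6. The log2 fold change was 0.54 (SE 0.13, adjusted p = 0.130). Its neighbour on chromosome 16, Mx1, was at -0.07 (SE 0.26), with knockout values of 3.99 to 4.82 that lay inside the control range of 3.62 to 5.32. Mx1 is known to carry inactivating deletions in many laboratory strains, and the strain is not given in the sources used here.

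Rsad2 (viperin), which makes a chain-terminating nucleotide, read 6.60, 6.73, 6.68, 7.08 and 6.55 on knockouts, against 6.70, 6.00, 6.21, 6.03 and 5.74 on controls. Only control 6 reached into the knockout range. The log2 fold change was 0.59 (SE 0.17, adjusted p = 0.172). Rtp4, an interferon-induced regulator of the response, read 8.64, 9.16, 8.99, 9.15 and 8.66 on knockouts, against 8.83, 8.23, 8.65, 8.24 and 7.43 on controls. Controls 6 and 8 overlapped the lower knockouts and control 10 stood well below the rest. The log2 fold change was 0.64 (SE 0.23, adjusted p = 0.242). Eif2ak2 (PKR), the kinase that halts translation on double-stranded RNA, read 8.77, 8.88, 8.56, 8.45 and 8.62 on knockouts, against 8.52, 8.33, 8.60, 8.15 and 8.29 on controls. Controls 6 and 8 again overlapped the lower knockouts, and the difference was 0.28 (SE 0.11, adjusted p = 0.300).

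The Ifit genes, which lie side by side on chromosome 19 and encode proteins that bind foreign RNA ends, did not give like values. Ifit2 read 5.02, 5.17, 4.78, 4.89 and 4.69 on knockouts, against 4.50, 4.65, 4.90, 4.18 and 4.28 on controls. Control 8 was the one control within the knockout range, and the log2 fold change was 0.41 (SE 0.14, adjusted p = 0.235). Ifit1 was at 0.55 (SE 0.26, adjusted p = 0.368), with knockout values from 8.39 to 9.06 and control values from 7.40 to 8.80. Ifit3 read 7.14, 7.68, 7.80, 7.81 and 7.69 on knockouts, against 7.44, 7.57, 7.86, 7.87 and 7.95 on controls. The 3 highest controls lay above every knockout, and knockout 1 was the lowest array of all. Its log2 fold change was -0.11 (SE 0.15). Mouse Ifit3 has a near-identical copy, Ifit3b, so the source of its signal is uncertain. The other effectors were at 0.36 for Xaf1, a regulator of apoptosis (95% interval -0.01 to 0.72), at 0.24 for Bst2, the tether that holds budding viruses on the cell (-0.27 to 0.76), and at -0.09 for Ifi35 (-0.33 to 0.16). Ifi35 read 8.89, 9.20, 8.94, 9.13 and 9.00 on knockouts, against 9.47, 8.99, 9.13, 9.10 and 8.91 on controls. Apart from a high control 6 these values covered the same span, and the dimmer of its probe sets gave 0.15 (SE 0.12).

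The ubiquitin-like modifier Isg15 and the protease that removes it, Usp18, were both at an unadjusted p under 0.05. Isg15 read 7.53, 7.76, 7.85, 7.86 and 7.31 on knockouts, against 7.66, 6.87, 7.42, 6.91 and 6.68 on controls. Controls 6 and 8 overlapped the lower knockouts. The log2 fold change was 0.55 (SE 0.19, adjusted p = 0.217). Usp18, which also damps signalling at the type I receptor, read 8.13, 8.44, 7.97, 8.37 and 7.47 on knockouts, against 8.32, 7.15, 7.68, 7.20 and 6.78 on controls. It had the largest log2 fold change of the measured members, 0.65 (SE 0.27, adjusted p = 0.310), a fold of 1.57, and its groups overlapped through control 6, control 8 and knockout 5. Of the ADP-ribosyltransferases Parp9 and Parp14, Parp9 read 8.87, 9.00, 8.83, 8.81 and 8.72 on knockouts, against 8.73, 8.43, 8.77, 8.53 and 8.23 on controls. Its groups met only at knockout 5 and controls 6 and 8, and the difference was 0.31 (SE 0.11, adjusted p = 0.251). Parp14 was at 0.07 (SE 0.11).

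**Figure D3:**
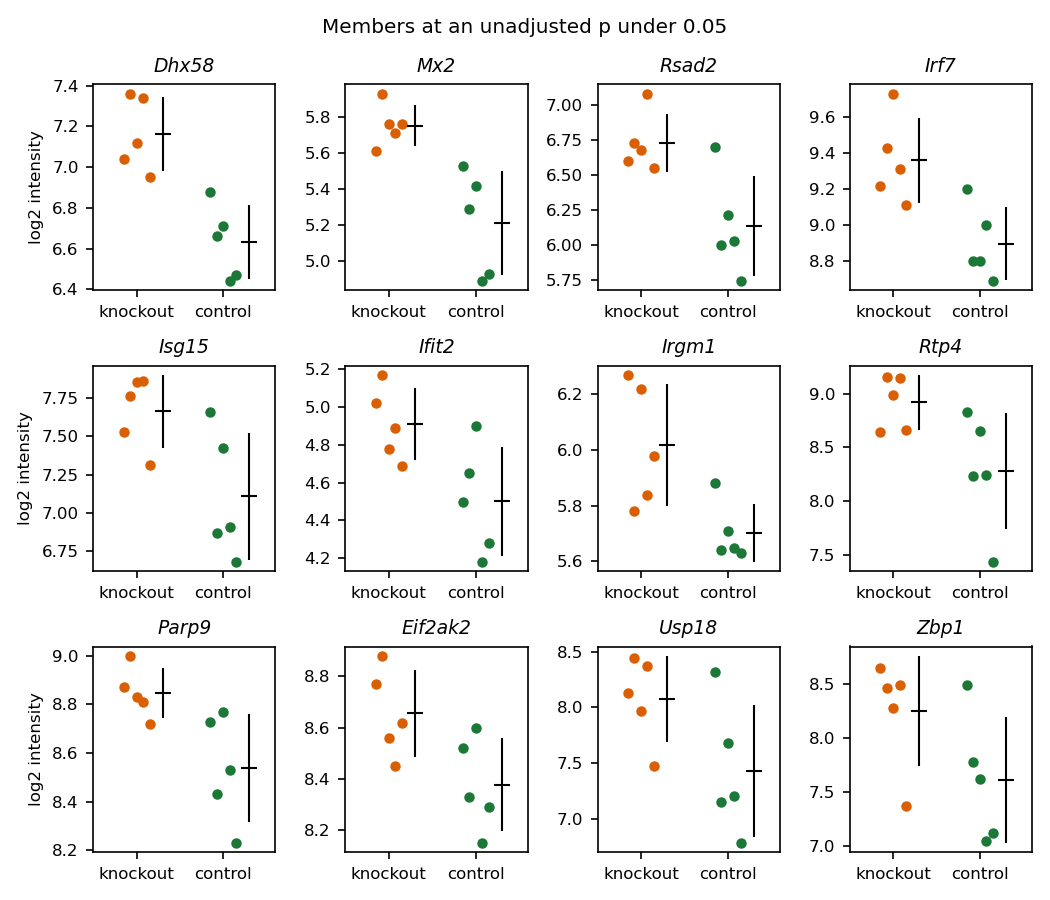
Log2 intensity on every array for the 12 members at an unadjusted p under 0.05, with the mean and SD beside each group (n = 5). Dhx58 and Mx2 are the 2 members with no overlap, and in every panel the highest control is control 6 or control 8.

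The guanylate-binding proteins are GTPases that attack the vacuoles of intracellular pathogens and are classic targets of interferon gamma. They gave 0 of 5 members at an unadjusted p under 0.05, where 8.29% of all genes were higher and 5.56% lower. Gbp7 was at 0.42 (SE 0.30), Gbp3 at 0.24 (SE 0.20), Gbp5 at 0.18 (SE 0.25) and Gbp4 at -0.09 (SE 0.23). Gbp6 read 2.85, 2.68, 2.89, 3.53 and 3.07 on knockouts, against 2.99, 2.75, 3.07, 4.06 and 3.33 on controls. Control 9 was its highest array, although the mean of all members was low on that array. Its log2 fold change was -0.24 (SE 0.23), the most negative of the set. The mean of Gbp6 over the 10 arrays was 3.12, below the array medians of 5.77 to 5.89, so its readings may be background. The Gbp genes are close paralogs in clusters on chromosomes 3 and 5, and probes may read more than 1 of them.

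The immunity-related GTPases act with the Gbp proteins. They included the only type II member of 13 at an unadjusted p under 0.05, against 8.29% of all genes higher. That was Irgm1, which read 6.27, 5.78, 6.22, 5.84 and 5.98 on knockouts, against 5.88, 5.64, 5.71, 5.65 and 5.63 on controls. Control 6 overlapped 2 knockouts and the other controls lay below all of them, with a log2 fold change of 0.32 (SE 0.11, adjusted p = 0.237). Igtp (Irgm3) read 7.82, 8.15, 7.16, 7.89 and 6.83 on knockouts, against 8.54, 7.20, 7.45, 6.63 and 5.78 on controls. Both its highest and its lowest array were controls, and it had the largest spread of the members over the 10 arrays, with an SD of 0.81. Its log2 fold change was 0.45 (SE 0.43). Iigp1 (Irga6) read 6.65, 6.84, 5.81, 6.20 and 5.86 on knockouts, against 6.71, 6.19, 6.06, 4.92 and 4.95 on controls. Controls 9 and 10 stood far below the other arrays, which overlapped, and the difference was 0.51 (SE 0.34, adjusted p = 0.547).

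Chemokines and antigen processing genes differed by less than their SD over the 10 arrays. Cxcl9 and Cxcl10, which draw in T cells through the receptor Cxcr3, were at 0.20 (95% interval -0.45 to 0.86) and 0.05 (-0.28 to 0.38). The immunoproteasome subunits Psmb8 and Psmb9 were at -0.03 (-0.49 to 0.43) and 0.10 (-0.35 to 0.54). Tap1, the peptide transporter encoded beside them on chromosome 17, was at 0.33 (-0.08 to 0.73). These intervals leave room for differences of either sign in each of the 5 genes.

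Type I genes had the larger median difference and the smaller spread. The median log2 fold change was 0.41 over the 17 type I genes, 0.20 over the 13 type II genes and 0.21 over the 6 shared genes. At an unadjusted p under 0.05 there were 9 type I genes (52.9%), 1 type II gene (7.69%) and 2 shared genes (33.3%), all higher. The share of all genes higher at that p was 8.29%, so the type II count was near it. The median SE was 0.15 for type I and 0.23 for type II genes. In type II genes the median SD was 0.37 within knockouts and 0.42 within controls, against 0.21 and 0.29 for type I genes and 0.17 and 0.19 for all genes. The difference between the class medians, type II minus type I, was -0.20 and was not tested. It was -0.11 without knockout 3 and -0.10 with the shared genes counted as type I.

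On each array the mean of a class, with each gene centred on its own mean, puts both classes on 1 scale. Type I means were 0.05, 0.38, 0.24, 0.25 and -0.06 on knockouts 1 to 5, against 0.18, -0.26, 0.04, -0.35 and -0.49 on controls 6 to 10. Type II means were 0.20, 0.42, -0.18, 0.31 and -0.27 on knockouts, against 0.34, 0.01, 0.14, -0.37 and -0.59 on controls. In both classes knockout 2 was the highest array and control 10 the lowest. The groups overlapped in both, for type II genes also through knockout 3, which lay below controls 6, 7 and 8. The gap of type II minus type I was 0.15, 0.04, -0.41, 0.06 and -0.21 on knockouts, against 0.16, 0.27, 0.09, -0.03 and -0.11 on controls. Knockout 3 had the lowest gap and control 7 the highest, and the other 8 arrays of both groups overlapped. The mean gap was -0.08 (SD 0.23) over the 5 knockouts and 0.08 (SD 0.15) over the 5 controls.

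The same arrays ranked high or low for many members at once. Among knockouts, knockout 2 was highest for 23 of 36 members, and knockout 5 was lowest for 20. Among controls, control 6 was highest for 24 and control 10 lowest for 22. Control SD exceeded knockout SD for 28 of the 36 members.

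**Figure D4:**
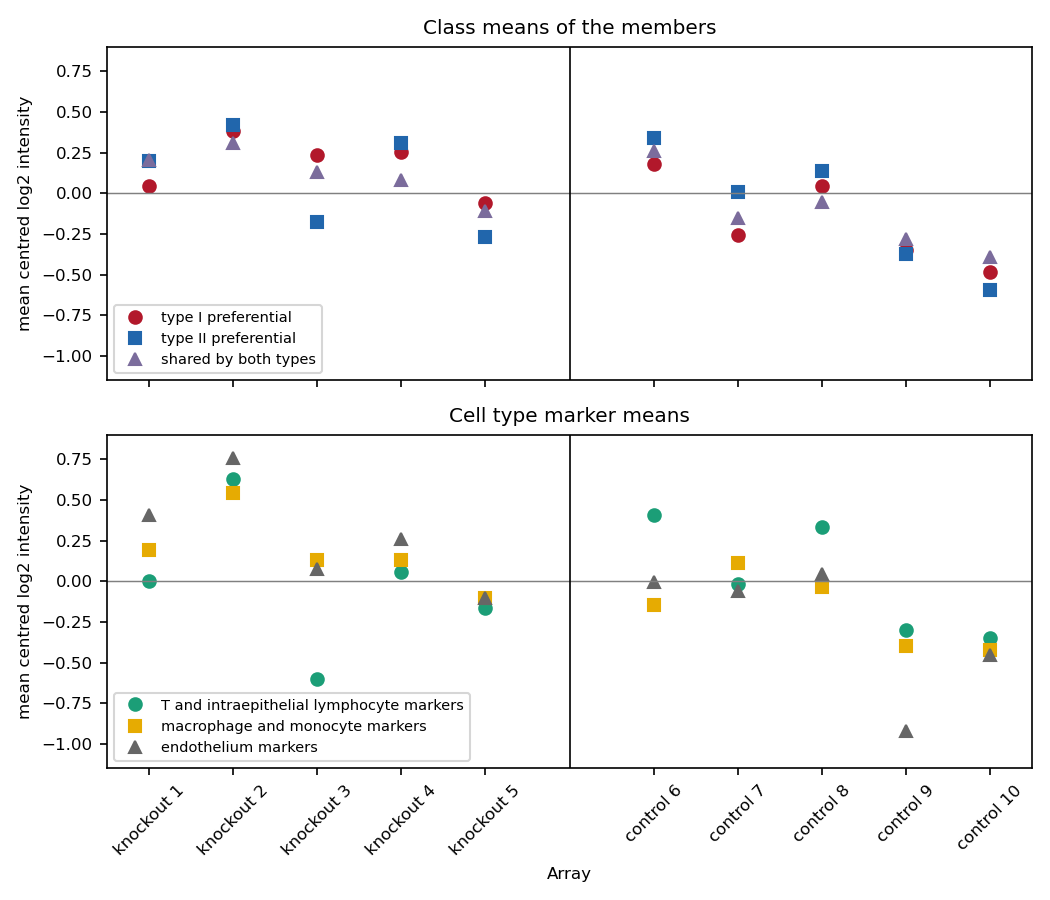
Mean centred log2 intensity on each array for the 3 classes of members (top) and for markers of T and intraepithelial lymphocytes, macrophages and monocytes, and endothelium (bottom). Knockout 2 is highest and controls 9 and 10 are low in both panels, and knockout 3 is low in T lymphocyte markers and in type II genes but not in type I genes.

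Markers of some cell types varied over the same arrays, and others did not follow that order. Markers of T and intraepithelial lymphocytes averaged, centred in the same way, 0.00, 0.63, -0.60, 0.06 and -0.17 on knockouts, against 0.41, -0.02, 0.33, -0.30 and -0.35 on controls. They were high on knockout 2, control 6 and control 8 and lowest on knockout 3, with a difference between groups of -0.03. Of these markers 4 of 11 were positive, with Itgae at a difference of 0.00. At an unadjusted p under 0.05, Cd4 was higher (0.62) and Cd3d lower (-0.38) in knockouts. Natural killer and innate lymphoid markers differed by -0.02, with 3 of 5 positive. Macrophage and monocyte markers were positive in 10 of 10 cases, 5 of them at an unadjusted p under 0.05, with summary levels of 6.89 to 7.53 on knockouts and 6.57 to 7.10 on controls (mean log2 intensity). Endothelium markers were positive in 6 of 6 cases, 4 of them at that p, at 6.39 to 7.25 on knockouts and 5.57 to 6.54 on controls. Both lists were highest on knockout 2 and low on controls 9 and 10, but control 6, which was high for most members, had centred means of only -0.15 for macrophage and -0.01 for endothelium markers. Crypt proliferation markers were positive in 7 of 7 cases, all at that p, at 8.07 to 9.02 on knockouts and 7.19 to 8.08 on controls. Knockout 2 was the lowest knockout and control 6 the lowest control for these markers, whereas both were high for most members. Knockout 5, the lowest knockout for most members, came next above knockout 2 here, at a centred mean of 0.28. Any link between these markers and the members was not tested. Paneth cell markers were positive in 7 of 7 cases and smooth muscle markers negative in 8 of 8, with 0 of either at an unadjusted p under 0.05. At that p, 8.29% of all genes were higher and 5.56% lower. None of the markers in these lists was called over all genes.

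The members' values changed when macrophage or endothelial markers entered the fit as a covariate, an alternative chosen after seeing the data. With the macrophage score the median was 0.13 for type I and -0.27 for type II genes, and with the endothelium score it was 0.09 and -0.32. Over all members it was 0.06 and 0.03. The unadjusted count was then 3 higher and 2 lower with the macrophage score, and 2 higher and 5 lower with the endothelium score, of 36 each. The share of all genes higher at that p was 8.18% and 9.90%, and the members' higher counts were near or below it. The share of all genes lower was not computed for these fits, so the lower counts cannot be set against one. The scores themselves were higher in knockouts by 0.36 and 0.56, so they and the group cannot be fully told apart. With the T lymphocyte score as covariate the medians were 0.42 and 0.24. In that fit 19 of 36 members were higher at an unadjusted p under 0.05, against 9.95% of all genes. Mx2 (0.55, adjusted p = 0.0409) and Dhx58 (0.54, adjusted p = 0.0368) then passed over all genes, as did 262 genes in total. They also passed with the Paneth cell score as covariate (adjusted p = 0.0273 and 0.0191, with 247 genes in total). That score was lowest on knockout 2 and control 6, with a centred mean of -1.62 on each. In the settings run here no member other than Mx2 and Dhx58 passed. Leaving out knockout 2 gave 452 called genes, and leaving out arrays 2, 6 and 8 gave 69, with 0 members in either.

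**Figure D5:**
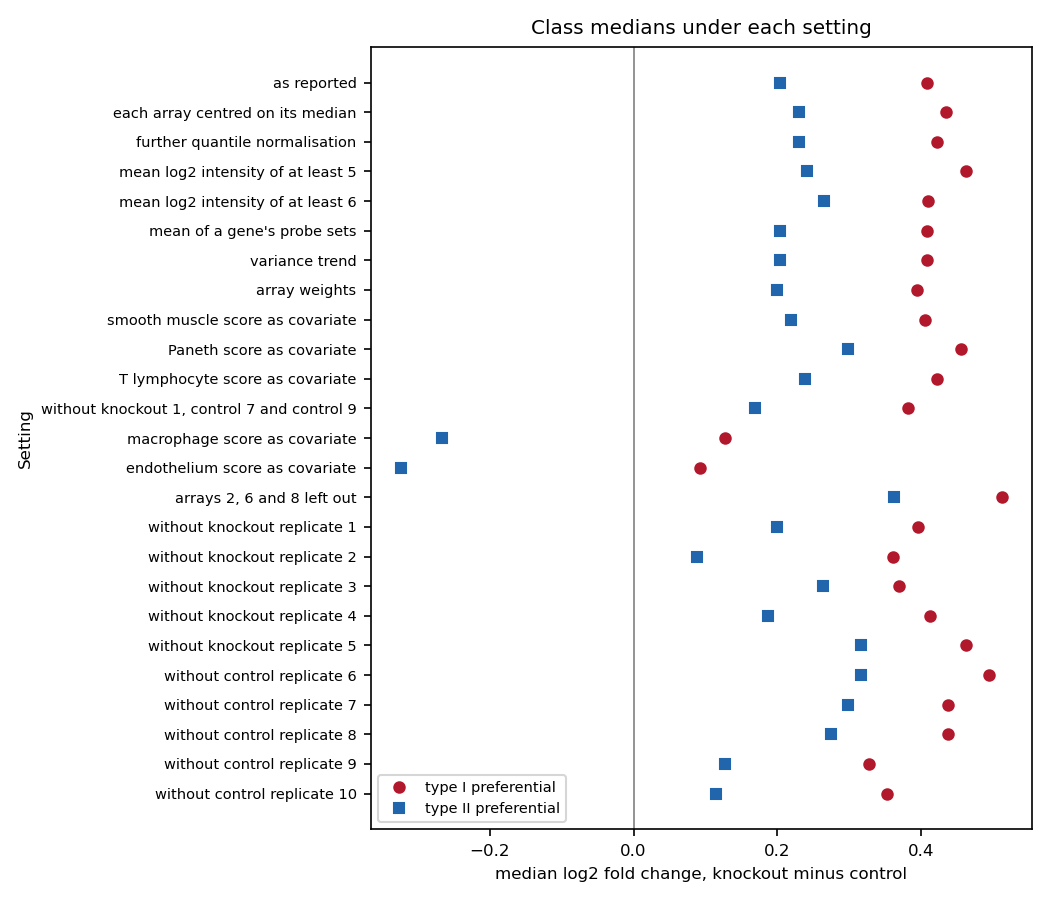
Median log2 fold change, knockout minus control, of type I and type II genes under each setting (rows), with the reported values at the top. Type I lies to the right of type II in every row, and type II falls below 0 with the macrophage and endothelium scores only.

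Single arrays moved the unadjusted count of members. It was 19 without control 6, where 6.65% of all genes were higher at that p, and 9 to 14 without any other array, where the share was 5.97% to 9.65%. Non-overlapping members numbered 8 without control 6, against 3.41% of all genes in either direction, and 4 without knockout 5, against 3.93%. They numbered 2 or 3 without any other array, against 3.05% to 7.66%. The highest of these shares was without knockout 2, where 2 members did not overlap. Without knockout 2 the type II median was 0.09, without control 10 it was 0.12 and without control 9 it was 0.13. Without knockout 5 it was 0.32, and without control 6 it was 0.32 as well. Without knockout 2, control 6 and control 8, which were high in T lymphocyte markers, 20 members were at an unadjusted p under 0.05 (against 8.26% of all genes higher) and 17 did not overlap (against 13.5% of all genes). Without knockout 1, control 7 and control 9, which were high in smooth muscle markers, 4 members were at that p (against 6.45% of all genes higher) and 2 did not overlap (against 9.41% of all genes).

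The ligands and receptors upstream of the members showed few differences. Over all genes, 8.29% were higher and 5.56% lower at an unadjusted p under 0.05. Of 19 interferon genes measured, 0 were called, and 1, Ifna6, was at an unadjusted p under 0.05 (0.21, SE 0.09, adjusted p = 0.352). Ifng, the type II ligand, read 4.61, 4.67, 4.62, 4.88 and 4.56 on knockouts, against 4.45, 4.32, 4.26, 4.53 and 4.70 on controls. Control 10 stood within the knockout range and the other controls lay below all knockouts, with a difference of 0.22 (SE 0.10, adjusted p = 0.377). Ifnb1 was at 0.07 (SE 0.12), and the type III ligands Ifnl2 and Ifnl3 at 0.04 (SE 0.09) and -0.04 (SE 0.14). These arrays gave no detection call, so low readings may be background.

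Of the receptors, Ifngr1, the ligand-binding chain for interferon gamma, read 11.16, 11.12, 11.15, 11.09 and 11.24 on knockouts, against 10.87, 10.96, 10.94, 10.99 and 10.97 on controls. The groups did not overlap, and the difference was small, 0.21 (SE 0.07, adjusted p = 0.230). The other 5 receptor genes were Ifngr2 (-0.05), Ifnar1 (-0.01), Ifnar2 (-0.09), Ifnlr1 (-0.15) and Il10rb (-0.18), with 95% intervals that included 0.

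Among 18 signalling genes 0 were called, and Myd88, the adaptor of most Toll-like receptors, was the only one at an unadjusted p under 0.05 (0.36, SE 0.11, adjusted p = 0.191). Jak2, a kinase of the interferon gamma receptor, was at -0.27 (SE 0.13, adjusted p = 0.378), Jak1 at -0.02 (SE 0.10) and Tyk2 at 0.05 (SE 0.09). The factors Irf3 and Irf8 were at 0.01 (SE 0.09) and 0.10 (SE 0.11). Nlrc5, the gamma-inducible activator of class I antigen presentation, was at -0.04 (SE 0.15). Of 7 negative regulators 0 were at an unadjusted p under 0.05, with Socs1 at 0.02 (SE 0.12).

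The OAS family, another set of ISGF3 targets, gave 10 of 11 positive values with a median of 0.42, against 0.41 for the type I genes here. Of the 11, 6 were higher at an unadjusted p under 0.05, against 8.29% of all genes, and 0 were called. MHC class II presentation genes, which interferon gamma induces through Ciita, had a median of 0.13, with 4 of 6 positive and 0 at that p. The sets rest on the same arrays, and no difference between them was tested.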

How the data were processed

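The values the authors deposited were probe set intensities on the linear scale, between 1.88 and 15500.2, and per the submitters' processing notes the software was Affymetrix Expression Console, version 1.4.1.46, with RMA. This method corrects background, equalises array distributions and summarises probes. Log2 of every value lay within 0.001 of a step of 0.01. Genome build, detection calls and scan batches are not given in the sources used here.

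Log2 values of 22180 genes with 1 symbol in the platform annotation were fitted with limma 3.58.1 in R 4.3.3, with Benjamini-Hochberg adjustment of p-values across all genes. Groups came from sample titles. All 36 members matched RefSeq by gene ID. Arrays give no read depth, and their number limits precision. Members, classes and lists were chosen with earlier results of these data known. Every measured member is named; values on each array are given for the 3 highest and 3 lowest fold changes, the 3 widest spreads and members at an unadjusted p under 0.05. Of pathway genes, receptors, fixed key genes and those at that p are named. The fit was tested on simulated data. Alternatives covered normalisation, intensity filters, probe set choice, variance models, marker covariates and left-out arrays.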

Additional observations from a re-analysis of the deposited data

Results flagged for a closer look

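In 4 cases 1 of the 5 arrays of a group lay far from the others by Dixon's ratio of the gap to the range, of 82 groups tested; chance flags about 1 in 20. Ifit3 had a ratio of 0.806 in knockouts, with knockout 1 at 7.14 and the others at 7.68 to 7.81. Stat2 had a ratio of 0.761 in knockouts, with knockout 2 at 8.65 and the others at 8.19 to 8.30. Ifih1 had a ratio of 0.762 in knockouts, with knockout 2 at 10.02 and the others at 9.60 to 9.70. Zbp1 had a ratio of 0.711 in knockouts, with knockout 5 at 7.37 and the others at 8.28 to 8.65. The critical value was 0.71, and the cause of these gaps was not tested.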

How the results depend on the processing

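No paired analysis was possible because knockouts 1 to 5 and controls 6 to 10 share no replicate number. The macrophage, endothelium and arrays 2, 6 and 8 alternatives were chosen after seeing the data. Median log2 fold changes, knockout minus control, were 0.13 (type I) and -0.27 (type II) with the macrophage score, and 0.093 and -0.32 with the endothelium score, where type II minus type I was -0.42; it was -0.10 with shared genes counted as type I and spanned -0.27 to -0.11 over single left-out arrays. With the Paneth score 22 members were higher at an unadjusted p under 0.05 (all genes higher, 9.47%). With the T lymphocyte score 19 were higher (9.95%). Each score gave 2 called members, among 247 and 262 called genes in total. The macrophage score gave 3 higher and 2 lower at that p (all genes higher, 8.18%). The endothelium score gave 2 higher and 5 lower (all genes higher, 9.9%). The share of all genes lower was not computed for these fits. Without knockout 1, control 7 and control 9 there were 4, all higher (6.45%). Without arrays 2, 6 and 8 there were 20, all higher (8.26%). Non-overlapping members numbered 1 of 36 after quantile normalisation, against 2.48% of all genes. They numbered 1 of 27 among genes of mean log2 intensity 6 or more, against 3.86%. Without arrays 2, 6 and 8 they numbered 17 of 36, against 13.5%. Leaving out 1 array at a time gave 9 to 19 members at that p (all genes higher, 5.97% to 9.65%) and 2 to 8 without overlap (all genes, 3.05% to 7.66%). Uncalled members whose sign turned with the macrophage score were Ifit3 (0.0055), Bst2 (-0.18), Gbp3 (-0.20), Gbp5 (-0.47), Gbp6 (0.21), Gbp7 (-0.35), Igtp (-0.35), Iigp1 (-0.27), Cxcl9 (-0.49), Cxcl10 (-0.19), Psmb9 (-0.27) and Parp14 (-0.050). With the endothelium score they were Ifit3 (0.037), Ddx58 (-0.008), Ifih1 (-0.038), Gbp3 (-0.23), Gbp5 (-0.42), Gbp6 (0.25), Gbp7 (-0.31), Igtp (-0.43), Iigp1 (-0.36), Cxcl9 (-0.53), Cxcl10 (-0.16), Psmb9 (-0.32), Tap1 (-0.057) and Parp14 (-0.095). The Paneth score turned Mx1 (0.052), Gbp4 (0.016) and Psmb8 (0.077). Leaving out arrays 2, 6 and 8 turned Mx1 (0.16), Gbp4 (0.012) and Psmb8 (0.14). Leaving out knockout 1, control 7 and control 9 turned Psmb9 (-0.0075) and Parp14 (-0.062), and averaging probe sets turned Ifi35 (0.03). Over single left-out arrays Ifit3 spanned -0.19 to 0.007, Mx1 -0.29 to 0.13, Irf1 -0.013 to 0.20, Gbp4 -0.25 to 0.04, Cxcl10 -0.056 to 0.17, Psmb8 -0.16 to 0.092 and Psmb9 -0.0085 to 0.23. The cause of these changes was not tested. Signal over background cannot be judged without detection calls.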
